A study of Mus musculus with 22 samples.

Results

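Tumors grown from MC38 cells in wild-type mice were compared with tumors of the same cell line grown in RAG1-/- mice, both collected at day 23. The comparison takes in every labelled library of these 2 groups, 3 wild-type and 3 RAG1-/- tumors, which makes 6 of the 22 labelled libraries of the series. MC38 is a mouse colorectal cancer line that grows as a tumor when it is injected under the skin of C57BL/6 mice. The wild-type hosts were C57BL/6N and the RAG1-/- hosts carried the strain name B6.129S7-Rag1tm1Mom/J, a knockout allele made in 129 embryonic stem cells and kept on a C57BL/6J background. Both groups were female and between 8 and 12 weeks old, received the same cells in the left flank and had no drug or antibody treatment. The loss of Rag1, the substrain of the host and the 129-derived DNA that still flanks the knockout therefore differ together and cannot be told apart. RNA was prepared from pieces of whole tumors, so cancer cells, infiltrating leukocytes, stroma and vessels were read in a single library, and 1 transplanted line at 1 site stands for the tumor. The other libraries used below are 3 wild-type tumors of day 46, 3 RAG1-/- tumors of day 13, 2 libraries of cultured MC38 cells and 2 of normal skin.

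RAG1 and its partner RAG2 cut the DNA of the antigen receptor genes so that their V, D and J segments can be joined. Without either enzyme T and B lymphocytes stop at an early stage and mature T cells, B cells and antibodies are absent, while natural killer (NK) cells, macrophages, dendritic cells and neutrophils still develop. Activated T cells and NK cells secrete interferon-gamma, which turns on the genes for chemokines such as CXCL9, for interferon-inducible GTPases and for antigen presentation by MHC molecules in cancer cells and macrophages alike.

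The deposited unit is the normalized count, the number of reads on a gene divided by a size factor of its library. Libraries held 5589151 to 26134241 reads on genes, with the deepest and the shallowest both in the RAG1-/- group, and 3 reads stood at 1.33 to 6.38 normalized counts. That floor covers counting error only. No 2 libraries of a group were copies of each other (chi-square per degree of freedom of 18.5 to 45.8 between their reads). Rag1 itself had 0 reads in all 3 wild-type tumors and 4, 1 and 4 reads in the RAG1-/- tumors, and Rag2 had 1 read over the 6 tumors. A read near the 3′ end can lie outside the deleted part of the allele, so these reads check nothing, and the labels were checked on the lymphocyte genes below. The labels do not say whether the 3 tumors of a group came from separate experiments, so the p-values measure the spread between tumors and may leave out that between experiments. In bulk tumors fewer cells of a type and less RNA per cell cannot be told apart, which holds for every marker given below.

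At day 23, 34 genes were higher and 7 genes were lower in wild-type than in RAG1-/- tumors at an adjusted p below 0.05, among 14746 genes tested. These are 0.231% and 0.0475% of the genes, and 0.278% in both directions. The test was limma on log2(normalized count + 1) with Benjamini-Hochberg adjustment, and all fold changes below are wild type minus RAG1-/- on that scale unless a linear fold is named. The spread behind each SE and p was pooled over the 12 tumors of 4 groups and drawn toward a trend over all genes. It is therefore not the spread of the day 23 tumors alone. Over the tested genes the median difference on the log2 scale was 0.01, and 1646 of them had an unadjusted p below 0.05. All 41 genes had groups that did not overlap. A lack of overlap by itself was common, since all wild-type tumors stood above all RAG1-/- tumors for 8.50% of the tested genes and below them for 7.62%. Counts given below for gene lists are to be read beside these shares. The volcano plot shows Cxcl9, Igkc and Iigp1 far above the threshold and most of the other genes close to it.

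**Figure D1:**
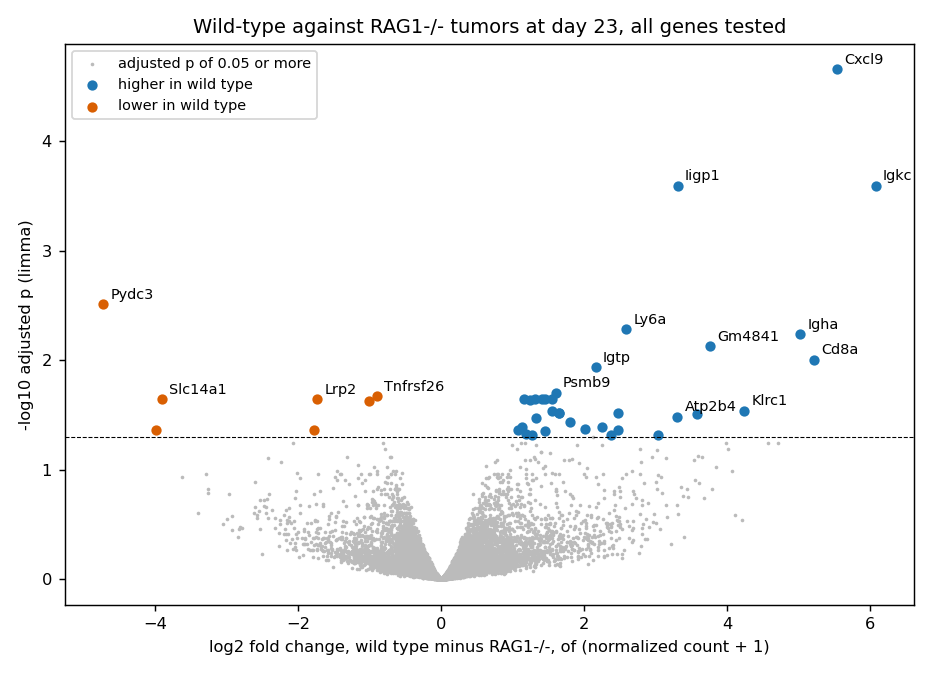
Log2 fold change (x axis, wild type minus RAG1-/- at day 23) against the adjusted p on a -log10 scale (y axis) for the 14746 genes tested, with the dashed line at 0.05. The 34 genes higher in wild type are blue, the 7 lower are orange, and Cxcl9, Igkc and Iigp1 stand apart from the other called genes.

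Leaving out 1 library at a time showed how firmly these counts stand. They were 7 higher and 1 lower without wild-type replicate 1, 15 and 3 without wild-type replicate 2, and 4 and 1 without wild-type replicate 3. They were 6 and 1 without RAG1-/- replicate 1, 8 and 3 without RAG1-/- replicate 2, and 55 and 5 without RAG1-/- replicate 3. Igkc, Cxcl9, Igha, Iigp1 and Pydc3 were the 5 genes that passed in all 6 of these fits. Lck, Nos2, Fcgr4, Gtf3c3, Cxxc5 and Slc14a1 passed in none. The remaining genes passed in 1 to 5 of the 6 fits. DESeq2 on the recovered reads called 158 genes higher and 81 lower, with all 41 genes among them, and edgeR called 17 higher and 5 lower, which were 22 of the 41. Those shares were 1.07% and 0.550% by DESeq2 and 0.115% and 0.0339% by edgeR.

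**Figure D2:**
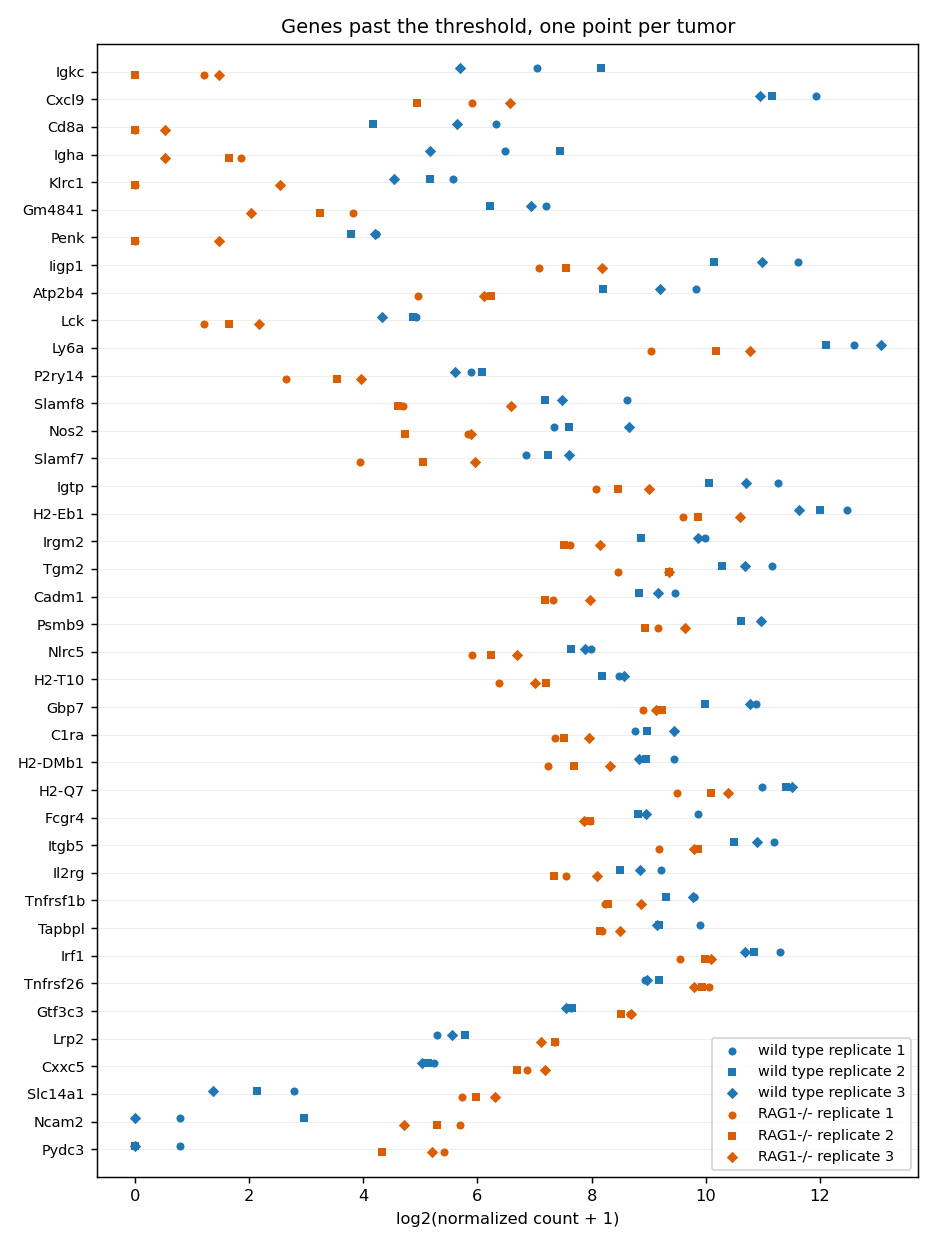
Each row is a gene past the threshold, for 40 of the 41 such genes, ordered by log2 fold change, and each point is 1 tumor at its log2(normalized count + 1) on the x axis (blue wild type, orange RAG1-/-). In every row the 3 blue points and the 3 orange points occupy separate ranges.

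Of the T cell genes, Cd8a and Lck passed the limma threshold, and several others had no read in the RAG1-/- tumors. Cd8a, which encodes the alpha chain of the CD8 co-receptor of cytotoxic T cells, stood at 79.7, 17.0 and 49.1 normalized counts in the wild-type tumors and at 0, 0 and 0.442 in the RAG1-/- tumors. The RAG1-/- value is 1 read, against 159 reads in wild type. Pooled over the tumors of a group and scaled to depth, these reads give a ratio of 176. Its 95% counting interval, 31.1 to 6993, leaves out the spread between tumors. The log2 fold change was 5.21 ± 0.77 (SE, n = 3 per group, limma adjusted p = 0.00994), and Cd8a passed in 3 of the 6 fits without a library, with an adjusted p of 0.101 without wild-type replicate 1. Lck, the kinase that starts T cell receptor signaling, stood at 29.5, 28.1 and 19.0 against 1.31, 2.13 and 3.53 (log2 fold change 3.03 ± 0.60, limma adjusted p = 0.0484), and 0.221 without RAG1-/- replicate 1.

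The chains of the T cell receptor complex pointed the same way without passing. Cd3d, a signaling subunit, had 50.9, 16.2 and 19.0 normalized counts in the wild-type tumors and no read in the RAG1-/- tumors, which is at least 33.5-fold higher when the RAG1-/- group is set to a floor of 3 reads over the group. On the same floor Cd8b1, the CD8 beta chain, was at least 31.9-fold higher, Trac, the constant region of the receptor's alpha chain, at least 16.2-fold and Cd3e, another signaling subunit, at least 14.0-fold. Their limma adjusted p-values ran from 0.0566 for Cd3d to 0.124 for Trac. Trbc2, a constant region of the receptor's beta chain, kept 7.86, 4.26 and 5.30 normalized counts in the RAG1-/- tumors against 83.3, 52.0 and 39.6 in wild type (limma adjusted p = 0.163). Of the 15 tested genes of the T cell list 2 were higher and 0 lower, 11 had all wild-type tumors above all RAG1-/- tumors, and the median log2 fold change was 3.08, with and without the genes that have no RAG1-/- read at their bound. Over all tested genes limma called 0.231% higher, and 8.50% had all wild-type tumors above. DESeq2 called 8 of the 15 higher and edgeR 1, and limma called 0 without wild-type replicate 1, wild-type replicate 3 or RAG1-/- replicate 1 and 1 without each of the others. Cd4, the co-receptor of helper T cells, was low and overlapped between the groups, with 13.3, 3.41 and 0 against 2.62, 2.13 and 5.74 normalized counts, and Foxp3, which marks regulatory T cells, had 8 reads in wild-type replicate 2 and none elsewhere. The summed level of the T cell list ranged from 615 to 1036 normalized counts in wild type and from 268 to 384 in RAG1-/- tumors. Tcf7, a transcription factor of T cells that is not restricted to them, made up 244, 266 and 321 of these counts in the RAG1-/- tumors. The defining genes Cd3d, Cd3e, Cd8b1 and Trac were at 0 in all RAG1-/- tumors, which matches the labels.

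Igkc and Igha, which encode antibody chains, were the B and plasma cell genes past the limma threshold. Igkc, the constant region of the kappa light chain (ENSMUSG00000076609.2, GRCm38 chr6:70726435-70726966), stood at 131, 287 and 50.7 normalized counts in wild type and at 1.31, 0 and 1.77 in RAG1-/- tumors. Its log2 fold change was 6.08 ± 0.62 (SE, limma adjusted p = 0.000256), a ratio of linear means of 152, and it passed in all 6 fits without a library, with an adjusted p of at most 0.00523. Igha, the heavy chain of IgA (ENSMUSG00000095079.6, GRCm38 chr12:113254830-113260236), stood at 88.5, 173 and 34.9 against 2.62, 2.13 and 0.442 (log2 fold change 5.02 ± 0.69, limma adjusted p = 0.0058), with an adjusted p of at most 0.0485 when a library was left out. Both genes were highest in wild-type replicate 2 and lowest in wild-type replicate 3, and neither had a read in MC38 cells.

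Other antibody genes were called by DESeq2 alone or not at all. Jchain, which links IgA and IgM molecules, stood at 16.2, 78.4 and 6.34 against 3.93, 0 and 0.884 (limma adjusted p = 0.143), and Ighg2c, an IgG heavy chain, at 19.9, 46.9 and 1.58 against 0, 0 and 0.442 (limma adjusted p = 0.133). Ighm, the heavy chain of IgM, overlapped, with 237, 118 and 25.4 in wild type and 35.3, 29.8 and 94.1 in RAG1-/- tumors. Cd79a, a signaling chain of the B cell receptor, had no read in the 6 tumors. The B and plasma cell list therefore had 2 of its 8 tested genes higher, 0 lower, 4 with all wild-type tumors above, and a median of 3.08, or 3.48 with the gene that has no RAG1-/- read at its bound. Leaving out a library moved this median between 2.01, without wild-type replicate 2, and 4.17, without wild-type replicate 3. Over all tested genes limma called 0.231% higher, and 8.50% had all wild-type tumors above.

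NK cell and cytotoxic genes gave a mixed picture. Klrc1, the inhibitory receptor NKG2A of NK cells and activated CD8+ T cells, stood at 46.5, 35.0 and 22.2 normalized counts in wild type and at 0, 0 and 4.86 in RAG1-/- tumors (log2 fold change 4.24 ± 0.75, limma adjusted p = 0.0289). It passed in 1 of the 6 fits without a library and had an adjusted p of 0.177 without RAG1-/- replicate 1. Klrk1, the activating receptor NKG2D, stood at 84.1, 17.9 and 17.4 against 1.31, 6.38 and 4.42 and did not pass (limma adjusted p = 0.108). Ncr1, which defines NK cells, had 4 reads in wild type and 15 in RAG1-/- tumors. The NK cell list had 1 of 11 tested genes higher and 0 lower with a median of 0.04, and its summed level was set by Klra4, a Ly49 receptor gene with 3966 to 8035 normalized counts in the tumors that also had 3320 and 3846 in cultured MC38 cells. Reads on Klra4 can be shared with its near-identical relatives.

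Among the 15 tested cytotoxic effector genes limma called 0, with 4 at an unadjusted p below 0.05, and edgeR and DESeq2 also called 0. Nkg7, a granule protein of cytotoxic lymphocytes, stood at 138, 51.1 and 66.5 against 2.62, 14.9 and 30.9 (limma adjusted p = 0.158). Gzmb, the main granzyme of killer cells, overlapped, with 89.2, 54.6 and 77.6 in wild type and 11.8, 48.9 and 82.2 in RAG1-/- tumors. Gzmc, a granzyme of strongly activated killer cells, had all wild-type tumors below all RAG1-/- tumors, with 169, 212 and 230 against 268, 349 and 701 (limma adjusted p = 0.344). Ifng, the gene for interferon-gamma itself, stood near the floor, with 22.9, 3.41 and 9.51 against 5.24, 0 and 1.33 normalized counts (limma adjusted p = 0.447). At these depths the cytokine's own transcript rests on 41 reads in wild type and 7 in RAG1-/- tumors.

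Listed genes that respond to interferon-gamma were mostly on the higher side in wild-type tumors. This list, like the others, was chosen with earlier results of these data known, so its counts are a description and no test. Of 47 tested genes of this list 8 were higher and 0 lower, 45 had a positive log2 fold change, 26 had all wild-type tumors above all RAG1-/- tumors and 1 had them below, and the median was 1.28. Over all tested genes 50.9% were positive and limma called 0.231% higher. All wild-type tumors stood above for 8.50% of them and below for 7.62%. DESeq2 called 21 of the 47 higher and edgeR 5. Leaving out a library kept the median between 1.15, without RAG1-/- replicate 1, and 1.48. The number of its genes called by limma was 2 without wild-type replicate 1, wild-type replicate 3, RAG1-/- replicate 1 or RAG1-/- replicate 2, 6 without wild-type replicate 2 and 10 without RAG1-/- replicate 3.

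The promoters of several of these genes hold the letters of known interferon response motifs, and 4 are shown so that the spacing of both motifs can be seen. They are the 250 bases before the gene start in RefSeq's annotation of GRCm38.p6, written 5′ to 3′ on the strand of the gene, with capitals for each gamma-activated site (GAS, TTCNNNGAA) and each interferon-stimulated response element (ISRE, GAAA, any 2 bases, GAAA) on either strand. Igtp and Irgm2, which are neighbours on chr11, Gbp7 on chr3, and Irf1 on chr11 are all on the plus strand. The Irf1 start shown is the one of its 2 listed starts whose window has a match.
Igtp, chr11:58199306-58199555, plus strand: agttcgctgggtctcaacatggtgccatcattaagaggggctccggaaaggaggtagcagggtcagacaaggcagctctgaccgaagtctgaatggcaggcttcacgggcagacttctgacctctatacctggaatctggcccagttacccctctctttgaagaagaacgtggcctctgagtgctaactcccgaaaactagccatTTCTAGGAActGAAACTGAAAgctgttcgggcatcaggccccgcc
Irgm2, chr11:58214727-58214976, plus strand: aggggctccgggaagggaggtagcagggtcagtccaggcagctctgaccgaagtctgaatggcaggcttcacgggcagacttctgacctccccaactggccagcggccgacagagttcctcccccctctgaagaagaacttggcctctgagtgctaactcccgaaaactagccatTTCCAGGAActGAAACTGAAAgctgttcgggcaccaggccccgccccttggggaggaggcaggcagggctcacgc
Gbp7, chr3:142530086-142530335, plus strand: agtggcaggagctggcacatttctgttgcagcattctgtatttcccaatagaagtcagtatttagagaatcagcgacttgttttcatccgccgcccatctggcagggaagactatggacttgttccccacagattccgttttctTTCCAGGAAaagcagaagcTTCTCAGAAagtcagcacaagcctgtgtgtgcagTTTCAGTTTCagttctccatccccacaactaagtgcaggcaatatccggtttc
Irf1, chr11:53769764-53770013, plus strand: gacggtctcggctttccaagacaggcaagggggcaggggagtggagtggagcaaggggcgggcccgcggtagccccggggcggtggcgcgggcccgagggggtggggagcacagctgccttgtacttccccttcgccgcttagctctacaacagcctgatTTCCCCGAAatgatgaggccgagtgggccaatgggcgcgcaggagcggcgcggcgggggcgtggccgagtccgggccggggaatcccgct

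In Igtp a GAS began 45 bases and an ISRE 34 bases before the gene start, and in Irgm2 they began 75 and 64 bases before it. Gbp7 had GAS matches at 106 and 87 bases before the start and an ISRE at 53, and Irf1 had a GAS at 90. No GAS overlapped an ISRE in these windows. Of the 34 genes higher in wild type, 21 matched an entry of the promoter table by symbol. A GAS stood in 5 of the 21 (23.8%) and an ISRE in 6 (28.6%). Among the 9956 tested genes with an entry, the shares were 7.15% and 3.34%, counting a gene when any of its starts had a match. The other genes with a match were Tnfrsf1b with both motifs, and Slamf8 and Fcgr4 with an ISRE. Cxcl9, Cd8a, Psmb9 and H2-Q7 had neither sequence of letters in this window, and none of the 3 lower genes with an entry (Gtf3c3, Lrp2 and Ncam2) had one. Igkc, Igha, Gm4841, Penk, Iigp1, Ly6a, Nos2, Tgm2, Cadm1, Nlrc5, H2-T10 and Tapbpl were among those with no entry. A match is a description of letters and was not tied to binding in these tumors.

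Cxcl9, the chemokine that draws T cells through the receptor CXCR3, was the gene with the lowest p-value. It stood at 3899, 2282 and 1982 normalized counts in wild type and at 58.9, 29.8 and 94.6 in RAG1-/- tumors, a ratio of linear means of 44.5. The log2 fold change was 5.54 ± 0.44 (SE, limma adjusted p = 2.23e-05), the adjusted p stayed at or below 0.000449 when any library was left out, and MC38 cells had no read of the gene (ENSMUSG00000029417.9, GRCm38 chr5:92321347-92328079, minus strand). Cxcl10 and Cxcl11, which share the receptor with Cxcl9, did not pass. Cxcl10 stood at 3319, 1560 and 2001 against 1643, 1551 and 1814 (limma adjusted p = 0.586), and Cxcl11 at 46.5, 24.7 and 60.2 against 19.6, 19.2 and 42.9 (0.655). The 3 genes thus had different sizes of fold in the same tumors, although the difference between them was not tested.

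The immunity-related GTPases, which attack the vacuoles of intracellular parasites and are induced by interferon-gamma, had 3 listed members past the threshold. Iigp1 stood at 3118, 1135 and 2023 normalized counts in wild type and at 135, 187 and 289 in RAG1-/- tumors (log2 fold change 3.31 ± 0.34, limma adjusted p = 0.000256, at most 0.00415 without any library). Igtp stood at 2449, 1062 and 1672 against 268, 351 and 515 (2.16 ± 0.33, limma adjusted p = 0.0116), passed in 2 of the 6 fits without a library and had 0.122 without RAG1-/- replicate 1. Irgm2 stood at 1010, 464 and 929 against 196, 183 and 281 (1.81 ± 0.34, limma adjusted p = 0.0365), and it too passed in 2 of 6, with 0.217 without RAG1-/- replicate 1. All 3 were lowest in wild-type replicate 2 among the wild-type tumors. The annotated spans of Igtp (GRCm38 chr11:58199556-58207591) and Irgm2 (GRCm38 chr11:58199618-58222782) overlap, so reads on them are uncertain where the counting could not place them. Gm4841, a predicted gene that is no member of the list, stood at 146, 73.3 and 122 against 13.1, 8.51 and 3.09 (3.75 ± 0.53, limma adjusted p = 0.00749), and at 0.0746 without wild-type replicate 3. Irgm1 and Ifi47, other GTPases of the family, overlapped between the groups, with log2 fold changes of 0.39 ± 0.31 and 0.68 ± 0.31.

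The guanylate-binding proteins, a related family of large GTPases, had 1 member past the threshold. Gbp7 stood at 1875, 1010 and 1748 normalized counts against 475, 602 and 558 (log2 fold change 1.46 ± 0.24, limma adjusted p = 0.0227, 0.163 without RAG1-/- replicate 1, passed in 2 of 6). Gbp2, at 3585, 1419 and 2172 against 405, 513 and 967, and Gbp5, at 142, 47.7 and 52.3 against 10.5, 14.9 and 18.1, did not overlap between the groups and had limma adjusted p-values of 0.0863 and 0.0598. Gbp3 and Gbp4 also had separate ranges, with log2 fold changes of 1.28 ± 0.31 and 1.25 ± 0.37, and were called by DESeq2 only. Copies of these genes are alike in sequence, so reads can move between them.

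Irf1, a transcription factor of the pathway, stood at 2516, 1834 and 1651 normalized counts against 746, 1015 and 1087 (log2 fold change 1.07 ± 0.21, limma adjusted p = 0.0438). It passed in 1 of the 6 fits without a library, with an adjusted p of 0.225 without RAG1-/- replicate 1. Nos2, the inducible nitric oxide synthase of activated macrophages, stood at 161, 194 and 402 against 56.3, 25.5 and 58.3 (2.38 ± 0.47, limma adjusted p = 0.0484) and was at 0.208 without wild-type replicate 3. Batf2, a factor of activated macrophages, stood at 59.0, 64.8 and 42.8 against 6.55, 2.13 and 12.8 and missed the threshold (limma adjusted p = 0.0656). Ido1, an enzyme of tryptophan breakdown that is often named as a target of this cytokine, had 12 reads in wild type and none in RAG1-/- tumors.

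The list of the type I interferon response, which overlaps in its biology with that of interferon-gamma, gave no call by limma. Of 31 tested genes 0 passed, with 6 at an unadjusted p below 0.05, and edgeR called 0 and DESeq2 1, which was Isg15. The median log2 fold change was 0.27, with 24 positive and 7 negative, and it ran from 0.04 without wild-type replicate 1 to 0.52 without wild-type replicate 2. Isg15, a ubiquitin-like protein that is attached to other proteins, stood at 1069, 351 and 716 against 258, 274 and 266 (limma adjusted p = 0.257). Mx1, an antiviral GTPase, had its wild-type tumors below the RAG1-/- tumors, with 134, 54.6 and 151 against 264, 185 and 220 (limma adjusted p = 0.345). Ifit1, which binds viral RNA, overlapped, with 891, 322 and 677 against 321, 430 and 679. Whether the interferon lists differ from each other was not tested.

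The MHC class I pathway, which shows peptides from inside a cell to CD8+ T cells, had 1 direction throughout. All 24 tested genes had a positive log2 fold change, 15 had all wild-type tumors above all RAG1-/- tumors, 5 passed higher and 0 lower, and the median was 0.96. Over all tested genes 50.9% were positive, 8.50% had such separate groups with wild type above, and limma called 0.231% higher. DESeq2 called 12 of the 24 higher and edgeR 4, and limma called 7 without RAG1-/- replicate 3 but 0 or 1 without any other library. Psmb9, a catalytic subunit of the immunoproteasome, stood at 1988, 1570 and 1987 normalized counts in wild type and at 569, 487 and 796 in RAG1-/- tumors (log2 fold change 1.60 ± 0.26, limma adjusted p = 0.0198). Nlrc5, the transactivator of class I genes, stood at 253, 199 and 235 against 58.9, 74.5 and 103 (1.56 ± 0.26, limma adjusted p = 0.0227). For both genes the 3 wild-type tumors lay close together and RAG1-/- replicate 3 was the nearest to them. Psmb9 passed in 2 of the 6 fits without a library (0.142 without RAG1-/- replicate 1) and Nlrc5 in 1 (0.163 without the same library).

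The remaining called genes of the pathway encode MHC molecules and a loading factor. H2-T10, annotated as a polymorphic pseudogene of the nonclassical class I cluster, stood at 355, 289 and 379 against 82.5, 147 and 127 (log2 fold change 1.54 ± 0.27, limma adjusted p = 0.0289, 0.18 without RAG1-/- replicate 1, passed in 1 of 6). H2-Q7, a nonclassical class I molecule, stood at 2019, 2723 and 2909 against 720, 1087 and 1338 (1.31 ± 0.22, limma adjusted p = 0.0227, 0.163 without RAG1-/- replicate 1, passed in 2 of 6). Tapbpl, which edits the peptides of class I molecules, stood at 949, 581 and 564 against 288, 283 and 359 (1.13 ± 0.21, limma adjusted p = 0.0406, 0.217 without RAG1-/- replicate 1, passed in 1 of 6). The H2-Q and H2-T genes are near copies of each other, so their single values are uncertain.

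The classical molecules had smaller changes at far higher levels. H2-D1 stood at 21890, 24637 and 25642 normalized counts against 8495, 12808 and 16257 (log2 fold change 0.99 ± 0.20, limma adjusted p = 0.0598), and H2-K1 at 10210, 18381 and 17295 against 8311, 8350 and 8385 (0.83 ± 0.21, limma adjusted p = 0.128). B2m, the light chain that all class I molecules share, stood between 70068 and 81701 in wild type and between 44033 and 69753 in RAG1-/- tumors (0.50 ± 0.21, limma adjusted p = 0.38). Tap1 and Tap2, the subunits of the peptide transporter, had separate ranges, with log2 fold changes of 1.06 ± 0.22 (limma adjusted p = 0.0649) and 1.36 ± 0.31 (0.0851). These 5 genes had no overlap between the groups and none passed by limma, while DESeq2 called all of them but B2m.

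The MHC class II pathway, by which macrophages, dendritic cells and B cells present outside peptides to CD4+ T cells, had 2 of 13 tested genes higher, 0 lower, 7 with all wild-type tumors above and a median of 1.05. The shares over all tested genes were 0.231% called higher by limma and 8.50% with all wild-type tumors above. By edgeR 0 passed and by DESeq2 4, and by limma 2 passed without RAG1-/- replicate 3 and 0 without any other library. H2-Eb1, a class II beta chain, stood at 5659, 4093 and 3156 normalized counts against 774, 934 and 1541 (log2 fold change 2.01 ± 0.38, limma adjusted p = 0.0426), and H2-DMb1, a chain of the peptide exchange factor H2-DM, at 698, 497 and 455 against 151, 206 and 317 (1.33 ± 0.24, limma adjusted p = 0.0336). Each passed in 1 of the 6 fits without a library, with adjusted p-values of 0.225 and 0.199 without RAG1-/- replicate 1. Cd74, the invariant chain, stood at 3859, 2412 and 2364 against 374, 798 and 1066 (limma adjusted p = 0.0965), and H2-Aa and H2-Ab1, the I-A chains, had log2 fold changes of 1.81 ± 0.55 and 1.73 ± 0.48 without passing. Wild-type replicate 1 was the highest and RAG1-/- replicate 1 the lowest for Cd74, H2-Eb1, H2-Aa and H2-Ab1. H2-Eb1 had no read in MC38 cells.

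**Figure D3:**
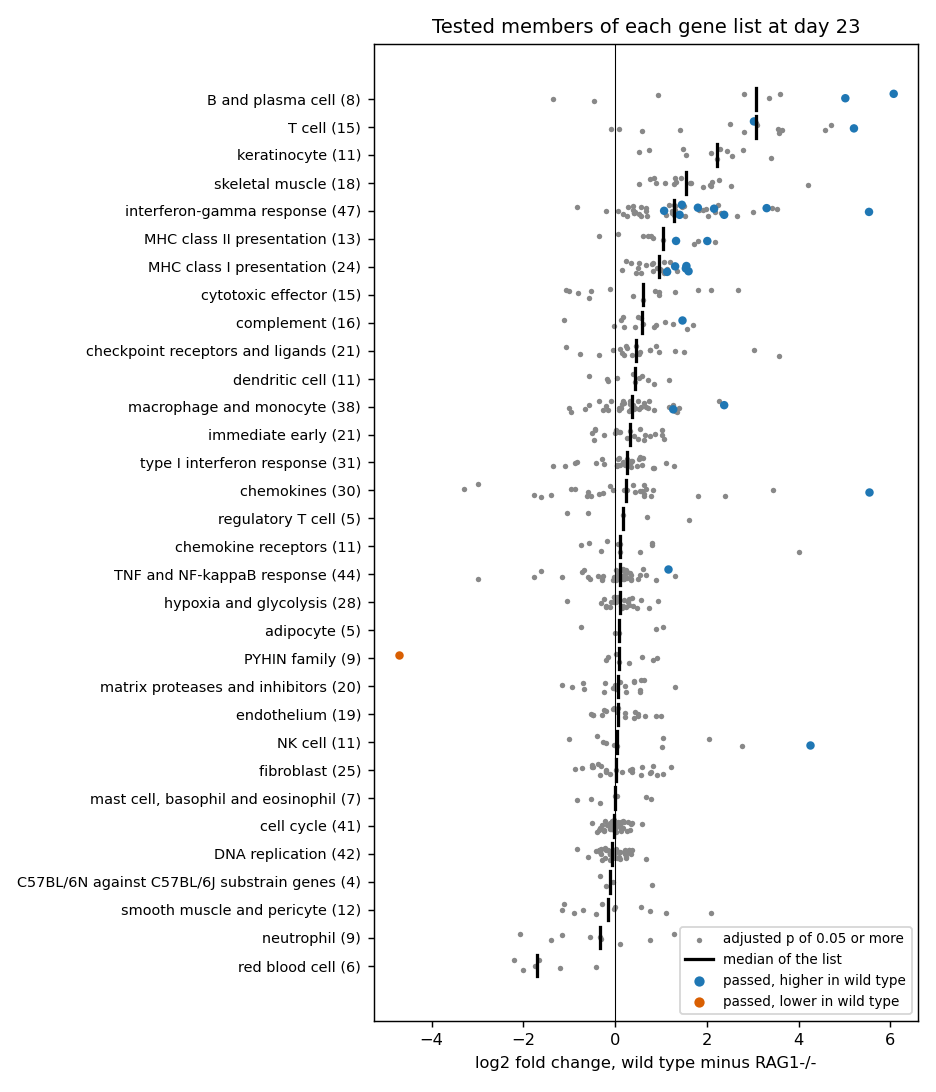
Each point is a tested gene at its log2 fold change (x axis, wild type minus RAG1-/- at day 23), in rows by gene list with the number of tested genes in parentheses, and black bars mark the median of each list. Blue points (higher) and the orange point (lower) passed the threshold. The T cell, B and plasma cell, interferon-gamma and MHC lists have medians right of 0, and so do the keratinocyte and skeletal muscle lists, in which no gene passed, while the median of the red blood cell list lies left of 0.

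In the macrophage and monocyte list 2 of 38 tested genes were higher, Nos2 and Fcgr4, 0 were lower, and the median was 0.37. Of the 38 genes 29 were positive and 9 negative, and 7 had all wild-type tumors above all RAG1-/- tumors. Over all tested genes limma called 0.231% higher, and 8.50% had such separate groups with wild type above. By edgeR 0 passed and by DESeq2 3, and limma called 0 when any library was left out. Fcgr4, an activating receptor for IgG on macrophages and monocytes, stood at 928, 448 and 494 normalized counts against 251, 251 and 231 (log2 fold change 1.27 ± 0.25, limma adjusted p = 0.0484) and at 0.217 without RAG1-/- replicate 1. Adgre1, which encodes the macrophage marker F4/80, stood at 1108, 909 and 618 against 706, 834 and 821 (0.12 ± 0.23), and Csf1r, the receptor for the macrophage growth factor, at 1668, 1040 and 765 against 809, 792 and 1440 (0.17 ± 0.28). Both overlapped between the groups. Mrc1, a marker of alternatively activated macrophages, stood at 406, 276 and 136 against 327, 872 and 434 (limma adjusted p = 0.4), and Arg1, an arginine-degrading enzyme of the same state, also overlapped.

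The dendritic cell list had 0 of 11 tested genes past the limma threshold, with 2 at an unadjusted p below 0.05, 0 by edgeR and 1 by DESeq2, which was Itgax. Itgax, the CD11c integrin chain of dendritic cells and macrophages, stood at 1030, 701 and 1144 against 302, 411 and 580 (log2 fold change 1.17 ± 0.24, limma adjusted p = 0.0571). Xcr1, the receptor of cross-presenting dendritic cells, was below the expression filter, with 35 reads in wild type and none in RAG1-/- tumors. Its groups did not overlap, and the exact two-sided permutation test gave p = 0.1, the smallest that 3 against 3 allows. Clec9a, which marks the same cells, had 42 reads in wild type and 1 in RAG1-/- tumors, but none of the former came from wild-type replicate 3.

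Checkpoint receptors and their ligands had 0 of 21 tested genes past the limma threshold, with 9 at an unadjusted p below 0.05, 0 by edgeR and 3 by DESeq2, while 10 had all wild-type tumors above all RAG1-/- tumors. Such separate groups with wild type above were seen for 8.50% of all tested genes. Cd274, the ligand PD-L1, stood at 259, 251 and 414 normalized counts against 137, 121 and 103 (log2 fold change 1.31 ± 0.29, limma adjusted p = 0.0805). Pdcd1, its receptor PD-1 on activated T cells, stood at 30.2, 11.9 and 12.7 against 2.62, 0 and 1.77 (3.04 ± 0.75, limma adjusted p = 0.112), and Icos, a costimulatory receptor of T cells, at 39.1, 29.0 and 15.8 against 5.24, 0 and 0.884 (3.58 ± 0.78, limma adjusted p = 0.0752). These 3 genes are the ones DESeq2 called. Ctla4 was below the filter, with 10.3, 17.9 and 3.17 in wild type and no read in RAG1-/- tumors, at least 12.2-fold higher on a floor of 3 reads over the group (exact two-sided permutation p = 0.1). Havcr2, the receptor TIM-3, stood at 175, 125 and 176 against 96.9, 115 and 115 (0.52 ± 0.24, limma adjusted p = 0.44). Lag3 had 1 read in wild type and 4 in RAG1-/- tumors.

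Among chemokines, Cxcl9 was the only one of 30 tested genes to pass by limma or edgeR. Ccl5, which attracts T cells and monocytes, overlapped, with 1474, 971 and 1081 normalized counts in wild type and 1139, 911 and 1859 in RAG1-/- tumors (log2 fold change -0.11 ± 0.29, limma adjusted p = 0.923). On the other side stood some ligands of the neutrophil receptor CXCR2, none of them called by limma. Cxcl1 and Cxcl5, ligands of the same receptor on the list, were called by none of the tools. Cxcl2 stood at 25.1, 29.0 and 14.3 against 55.0, 126 and 66.7 (-1.78 ± 0.50, limma adjusted p = 0.165), Cxcl3, at 3.69, 1.70 and 3.17 in wild type, lay between 9.28 and 24.9 in RAG1-/- replicates 3 and 1 and higher in replicate 2 (0.279), and Ppbp, a platelet chemokine, at 10.3, 5.97 and 0 against 35.3, 68.1 and 28.3 (0.11). Together with Ccl9, a myeloid chemokine at 542, 616 and 528 against 748, 1598 and 1098, these are the 4 that DESeq2 called lower in wild type. RAG1-/- replicate 2 was the highest tumor for all 4.

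The chemokine receptors had 0 of 11 tested genes past the limma threshold, with 3 at an unadjusted p below 0.05, 0 by edgeR and 2 by DESeq2. Cxcr6, a receptor of tissue-homing CD8+ T cells, stood at 42.0, 25.6 and 33.3 normalized counts against 0, 8.51 and 0 (limma adjusted p = 0.0641). Cxcr3, the receptor of Cxcl9, had 6 reads in wild type and 8 in RAG1-/- tumors, so no difference was detectable at this depth.

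Several called genes outside the immune lists encode surface proteins. Ly6a, the Sca-1 antigen of stem cells and activated lymphocytes, stood at 6185, 4385 and 8591 normalized counts against 526, 1158 and 1745 (log2 fold change 2.59 ± 0.35, limma adjusted p = 0.00521), passed in 5 of the 6 fits without a library and had 0.0582 without wild-type replicate 3. Slamf7, a receptor of plasma cells, NK cells and macrophages, stood at 114, 150 and 193 against 14.4, 31.9 and 61.4 (2.25 ± 0.43, limma adjusted p = 0.0406). Its relative Slamf8, found on myeloid cells, stood at 394, 145 and 177 against 24.9, 23.4 and 95.4 (2.47 ± 0.48, limma adjusted p = 0.0438). P2ry14, a receptor for UDP-sugars, stood at 58.3, 66.5 and 47.5 against 5.24, 10.6 and 14.6 (2.47 ± 0.45, limma adjusted p = 0.0303). The last 3 passed in 1 of 6 fits each, with 0.18 to 0.225 without RAG1-/- replicate 1. Il2rg, the common gamma chain of the receptors for interleukin-2 and related cytokines, had a log2 fold change of 1.19 ± 0.23 (limma adjusted p = 0.0475, 0.221 without RAG1-/- replicate 1).

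Atp2b4, Penk and Cadm1 had higher levels in both skin libraries than in any tumor of day 23. Atp2b4, a calcium pump of the plasma membrane, stood at 904, 292 and 586 normalized counts against 30.1, 74.5 and 68.0 (log2 fold change 3.30 ± 0.60, limma adjusted p = 0.0328), with 1179 and 1754 in skin and no more than 20.5 in MC38 cells. Penk, the precursor of the enkephalin peptides, stood at 17.7, 12.8 and 17.4 against 0, 0 and 1.77 (3.58 ± 0.65, limma adjusted p = 0.0307), with 374 and 203 in skin. Cadm1, a cell adhesion molecule, stood at 699, 453 and 572 against 160, 145 and 251 (1.65 ± 0.30, limma adjusted p = 0.0303), with 936 and 937 in skin. Each passed in 1 of the 6 fits without a library, and without RAG1-/- replicate 1 the adjusted p was 0.22 for Atp2b4, 0.177 for Penk and 0.196 for Cadm1. Tgm2, Itgb5 and Tnfrsf1b were lower in both skin libraries than in all wild-type tumors of day 23. Tgm2, a protein cross-linking enzyme, stood at 2298, 1245 and 1637 against 350, 651 and 657 (1.65 ± 0.30, limma adjusted p = 0.0303, 0.199 without RAG1-/- replicate 1), C1ra, a protease of the first complement component, at 433, 502 and 696 against 162, 183 and 247 (1.45 ± 0.28, limma adjusted p = 0.0444, 0.225 without it), Itgb5, an integrin chain, had a log2 fold change of 1.25 ± 0.21 (limma adjusted p = 0.0233, 0.164 without it), and Tnfrsf1b, the second receptor for TNF, one of 1.16 ± 0.20 (limma adjusted p = 0.0227, 0.164 without it).

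Markers of the tissue around the graft were uneven among the wild-type tumors. The skeletal muscle list summed to 1512, 111 and 995 normalized counts in wild type and to 148, 143 and 162 in RAG1-/- tumors, so wild-type replicates 1 and 3 were high and replicate 2 was the lowest of all 6. Its 18 tested genes were all positive with a median of 1.54 (0.71 without wild-type replicate 1), but limma called 0, with 1 at an unadjusted p below 0.05, and edgeR and DESeq2 called 0. The keratinocyte list summed to 442, 2418 and 903 against 509, 526 and 436, so wild-type replicate 2 was the highest and replicate 3 was also above all RAG1-/- tumors. All 11 tested genes were positive with a median of 2.22 (0.97 without wild-type replicate 2), 0 passed by any of the 3 tools and 4 had an unadjusted p below 0.05. Krt5, a keratin of the basal epidermis, had 2 reads in wild-type replicate 1, 159 in replicate 2 and none in the other 4 tumors. The part of skin and muscle in the called genes was not tested.

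Red blood cell genes lay on the opposite side. Their list summed to 1864, 2566 and 1131 normalized counts in wild type and to 5612, 4049 and 9608 in RAG1-/- tumors, with no overlap. All 6 tested genes were negative with a median of -1.70, 5 had all wild-type tumors below, and limma, edgeR and DESeq2 called 0, with 3 at an unadjusted p below 0.05. All wild-type tumors stood below all RAG1-/- tumors for 7.62% of all tested genes. Hba-a1, an alpha globin, stood at 379, 467 and 192 against 1379, 955 and 2527 (limma adjusted p = 0.385), and reads on it can be shared with its near-identical copy Hba-a2. The neutrophil list summed to 1335, 826 and 900 against 1690, 1670 and 2290 and had 0 of 9 tested genes past the limma threshold, 3 at an unadjusted p below 0.05, and 0 by edgeR and DESeq2. Its genes went both ways, with 3 positive, 6 negative and a median of -0.32. All wild-type tumors stood above all RAG1-/- tumors for 1 of them and below for 1. S100a9, an alarmin of neutrophils, stood at 8.11, 9.38 and 3.17 against 11.8, 134 and 16.3, so the size of its difference rested on RAG1-/- replicate 2. The fibroblast and endothelium lists had medians of 0.01 and 0.06.

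**Figure D4:**
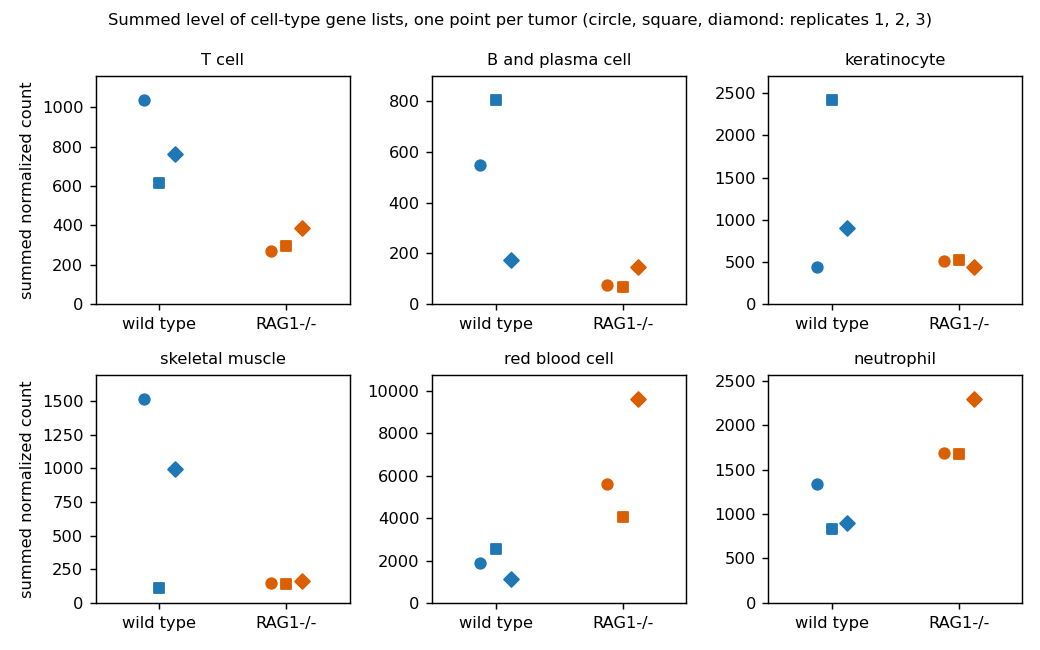
Summed normalized counts (y axes, each from 0) of 6 cell-type gene lists in the 3 wild-type (blue) and 3 RAG1-/- (orange) tumors at day 23, with 1 point per tumor and the shape giving the replicate. The T cell, B and plasma cell sums are higher in all wild-type tumors, the skeletal muscle sum is high in wild-type replicates 1 and 3, the keratinocyte sum in wild-type replicate 2 and less so in replicate 3, and the red blood cell and neutrophil sums are higher in all RAG1-/- tumors.

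The 7 genes that were lower in wild-type tumors belonged to no common list. Cultured MC38 cells had no read of 1 of them, or 14.3%, against 5.24% of all tested genes. That gene was Pydc3, which encodes a protein with a pyrin domain of the PYHIN family of DNA sensors. It stood at 0.738, 0 and 0 normalized counts in wild type and at 41.9, 19.2 and 35.8 in RAG1-/- tumors (log2 fold change -4.72 ± 0.60, limma adjusted p = 0.00308). That is 122 reads against 1, a ratio of 110 after pooling and scaling to depth. The 95% counting interval, 19.4 to 4390, leaves out the spread between tumors. Pydc3 passed in all 6 fits without a library, with a limma adjusted p of at most 0.0289. The other 8 tested genes of its family did not pass, and Aim2, the DNA sensor of the inflammasome, stood at 285, 321 and 295 against 376, 321 and 341. Pydc3 was on the lower side in the wild-type tumors of day 46 as well, with a log2 fold change of -2.73 against the RAG1-/- tumors of day 13 (limma adjusted p = 0.105).

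Slc14a1, a urea transporter, stood at 5.90, 3.41 and 1.58 normalized counts in wild type and at 52.4, 61.7 and 77.8 in RAG1-/- tumors (log2 fold change -3.90 ± 0.65, limma adjusted p = 0.0227), with 62.5 and 45.9 in MC38 cells. Ncam2, a neural cell adhesion molecule, stood at 0.738, 6.82 and 0 against 51.1, 38.3 and 25.2 (-3.98 ± 0.77, limma adjusted p = 0.0438), with 24.0 and 35.2 in MC38 cells. At day 23 the RAG1-/- tumors were near the level of the cultured cells for both genes. The wild-type tumors of that day were far below it. The RAG1-/- tumors of day 13 did not keep this level. Slc14a1 stood there at 4.28, 5.56 and 8.57 normalized counts, and Ncam2 was below both MC38 libraries in all of them. In the wild-type tumors of day 46 Slc14a1 stood at 5.86, 28.2 and 42.7, and Ncam2 was below all RAG1-/- tumors of day 13. Lrp2, the endocytic receptor megalin, stood at 38.4, 53.7 and 46.0 against 162, 164 and 137 (-1.73 ± 0.30, limma adjusted p = 0.0227), with 281 and 212 in MC38 cells, and Cxxc5, a zinc finger protein, at 36.9, 34.1 and 31.7 against 115, 102 and 144 (-1.77 ± 0.34, limma adjusted p = 0.0438), with 99.3 and 87.0. Without RAG1-/- replicate 1 the adjusted p was 0.142 for Slc14a1, 0.225 for Ncam2, 0.163 for Lrp2 and 0.199 for Cxxc5.

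Tnfrsf26, a member of the TNF receptor family, stood at 489, 581 and 499 against 1060, 970 and 889 (log2 fold change -0.89 ± 0.14, limma adjusted p = 0.0212), with 980 and 1004 in MC38 cells. Gtf3c3, a subunit of the transcription factor TFIIIC, stood at 199, 199 and 185 against 406, 364 and 414 (-1.01 ± 0.17, limma adjusted p = 0.0234), with 322 and 284 in MC38 cells. Their adjusted p without RAG1-/- replicate 1 was 0.162 and 0.163. Of the 7 lower genes, 6 had both MC38 libraries above all 3 wild-type tumors, which held for 3541 of the 14746 tested genes. The 7 genes were chosen for low wild-type values, which favours this in advance. Both MC38 libraries were above all RAG1-/- tumors of day 23 for 1 of the 7 and below all of them for 3. Over all tested genes these counts were 3211 and 4231.

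The levels of the genes higher in wild type were also looked up in the cultured cells. MC38 cells had no read of 9 of the 34 genes, or 26.5%, against 5.24% of all tested genes. For 27 of the 34 both MC38 libraries were below all 6 tumors, against 21.5% of all tested genes. Irf1 was among the genes with reads in the cells, at 447 and 417 normalized counts, as were Ly6a at 566 and 602 and Itgb5 at 487 and 509.

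Genes of growth programs were close to 0 in their medians. The cell cycle list had 0 of 41 tested genes past the limma threshold, 2 at an unadjusted p below 0.05 and 0 by edgeR and DESeq2, with a median of -0.02. Mki67, the proliferation marker Ki-67, stood at 1460, 1037 and 1540 normalized counts against 1671, 1177 and 1478 (log2 fold change -0.11 ± 0.20). The DNA replication list had 0 of 42 past the limma threshold, 4 at an unadjusted p below 0.05, 0 by edgeR and 2 lower by DESeq2, with a median of -0.07. The 2 were Rfc5, a subunit of the clamp loader, at 586, 667 and 520 against 797, 1117 and 790 (limma adjusted p = 0.15), and Pole, the leading-strand DNA polymerase, at 214, 228 and 242 against 532, 319 and 397 (0.152). A p above the threshold does not show that the levels were equal, and in simulated reads of these depths limma recovered 32.8% of genes changed 2-fold and 93.9% of genes changed 8-fold.

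The TNF and NF-kappaB list had Tnfrsf1b as its 1 gene of 44 called by limma, edgeR called 1, and DESeq2 called 1 higher and 2 lower, the latter being Cxcl2 and Cxcl3. Tnf, the cytokine, overlapped, with 42.0, 29.0 and 7.92 against 26.2, 27.7 and 31.4. The hypoxia and glycolysis list had 0 of 28 past the limma threshold, 3 at an unadjusted p below 0.05, 0 by edgeR and 1 by DESeq2. Gapdh, a glycolytic enzyme that is often used as a reference gene, did not overlap, with 2470, 5838 and 2347 against 6465, 6428 and 7087 (log2 fold change -1.04 ± 0.32, limma adjusted p = 0.208). The complement list had C1ra as its 1 gene of 16 called by limma, with a median of 0.59, while edgeR called 0 and DESeq2 2.

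The genes called at day 23 were then read in 6 tumors outside the compared groups, the wild-type tumors of day 46 and the RAG1-/- tumors of day 13. Their spread and their means had entered the fit and the filter behind the day 23 calls, so they are not independent of these calls. Host and day differ together in those tumors, so their contrast is set beside the day 23 values and is no repeat of them. All 34 genes higher at day 23 were on the higher side in wild type there too, with a median log2 fold change of 1.07, and 25 had all 3 wild-type tumors above all 3 RAG1-/- tumors. Of all tested genes 51.1% were on the higher side and 10.3% had such separate groups with wild type above. Of the 7 lower genes 6 were on the lower side. In that contrast limma called 15 genes higher and 2 lower, or 0.102% and 0.0136% of the tested genes. Among them were 6 of the 34, which were Igkc, Cxcl9, Igha, Iigp1, Nlrc5 and H2-Q7, and 1 of the 7, Tnfrsf26. With only those 6 tumors in the fit, 4 and 0 passed. Igkc had a log2 fold change of 7.52 (limma adjusted p = 4.11e-05), Cxcl9 one of 3.91 (0.00126) and Iigp1 one of 2.23 (0.0131).

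**Figure D5:**
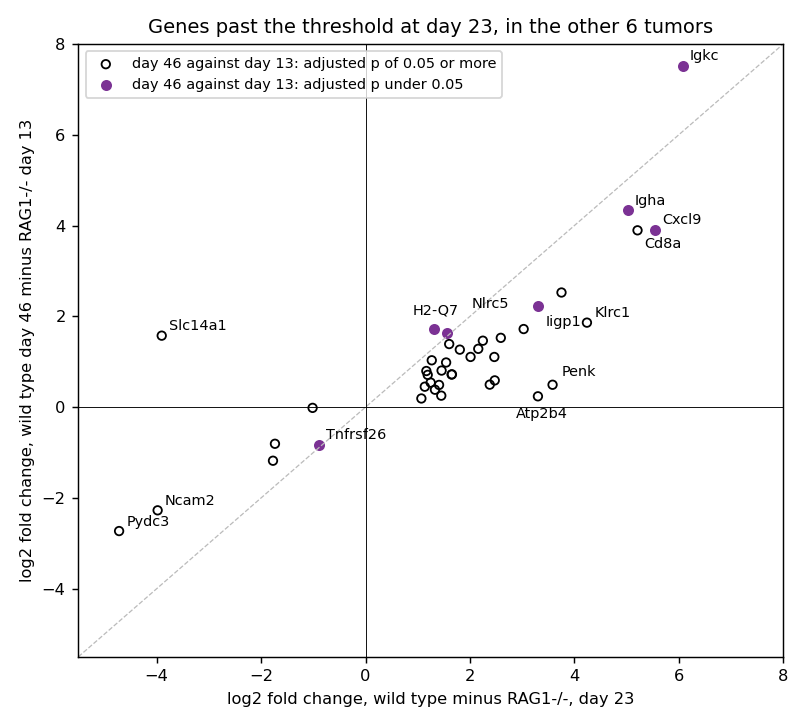
Log2 fold change at day 23 (x axis) against the log2 fold change of wild-type tumors of day 46 minus RAG1-/- tumors of day 13 (y axis) for the 41 genes past the threshold at day 23, with filled points for an adjusted p below 0.05 in the second contrast. All genes but Slc14a1 keep their side of 0, and Atp2b4 and Penk lie near 0 on the y axis.

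Some genes were far apart at day 23 and close in those tumors. The log2 fold change of Atp2b4 was 3.30 at day 23 and 0.24 there, that of Penk 3.58 and 0.49 and that of Nos2 2.38 and 0.50. Slc14a1 had opposite signs, with -3.90 and 1.57 (limma adjusted p = 0.331 in the second contrast), and Gtf3c3 had -1.01 and -0.02. Whether the 2 contrasts differ was not tested.

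The called genes lay on many chromosomes, of which some are given here without ranking them. There were 5 on chromosome 17 (0.761% of its tested genes), 6 on chromosome 1 (0.647%) and 5 on chromosome 6 (0.706%). The share over all tested genes was 0.278%. Chromosome 2, where Rag1 lies (GRCm38 chr2:101638282-101649501), had 2 (0.180%). Within 10 Mb of Rag1 75 genes were tested, limma called 0 and 5 had an unadjusted p below 0.05, which is 6.67% against 11.2% of all tested genes. With 0.278% of all tested genes called, 0 calls among so few genes says little. The part of the flanking DNA was not tested. The lowest limma adjusted p within this reach was 0.248, for Bdnf, a neurotrophin. Of 6 genes known to differ between the C57BL/6N and C57BL/6J substrains 4 were tested and limma, edgeR and DESeq2 called 0, with 1 at an unadjusted p below 0.05. Nnt, a mitochondrial transhydrogenase that is truncated in C57BL/6J, stood at 618, 490 and 545 normalized counts against 690, 634 and 737 (log2 fold change -0.32 ± 0.18, limma adjusted p = 0.539), and MC38 cells had 830 and 836.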

How the data were processed

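RNA from tumor pieces, cultured MC38 cells and skin was made into 3′ tag libraries (QuantSeq) and sequenced on an Ion Proton. Per the study's methods, the authors trimmed reads with Cutadapt and Trimmomatic, aligned them to mm10 with STAR and then Bowtie2, removed ribosomal reads, counted genes with HTSeq and normalized with DESeq2. Versions, annotation and strand setting are not given in the sources used here. The deposited values are a signal, counts divided by a size factor, and 100% of them came out as whole reads within 0.01 read. The 3′ reads give no length or isoform information.

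The values were tested with limma 3.58.1 in R 4.3.3 (log2 of the normalized count + 1, mean-variance trend, genes with a mean of at least 5 over the 12 tumors, all 4 tumor groups in the fit, Benjamini-Hochberg adjustment, threshold 0.05). As alternatives, the recovered reads went through edgeR 4.0.16 and DESeq2 1.42.0, beside other pseudocounts, filters and scalings and fits without each library. On simulated reads of this comparison limma recovered 63.5% of 200 changed genes, with 8 false calls among 14866 genes. Exact permutation tests were two-sided.

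Groups came from the labels. Members and gene lists were chosen with earlier results of these data known. Genes named are those past the threshold and genes of 33 lists (701 of 718 listed genes in the table, 575 tested). Bdnf was named after its value was seen. A few genes counted in the totals are not reported here by name. Positions are from GENCODE on GRCm38 (mm10) and promoters from RefSeq on GRCm38.p6. The table of antibody-treated tumors was not used here, since 6 of its columns matched no label.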

Additional observations from a re-analysis of the deposited data

How the results depend on the processing

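The number of genes higher and lower in wild type (34 and 7) was 18 and 4 with no filter, 12 and 3 without the trend, 17 and 5 by edgeR, 158 and 81 by DESeq2, and 38 and 15 with only the 6 tumors of day 23 in the fit. It ran from 4 to 55 and from 1 to 5 when 1 library was left out. Called genes on the lists, 24, were 15 with no filter, 8 without the trend, 14 by edgeR, 72 by DESeq2 and 5 to 27 without a library. Of the 7 lower genes 1 also passed at day 46 against day 13, and 0 with only those 6 tumors. The cause was not tested. Replicate numbers did not pair the tumors (correlations of -0.0949, 0.0299 and -0.0368), and the fit with the replicate block called 33 and 6.

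Some medians near 0 changed sign. That of the chemokines, 0.23, was -0.018 by edgeR and -0.0253 by DESeq2 and ran from -0.15 to 0.37 without a library, that of the NK cell list from -0.15 to 0.79 and that of the PYHIN family from -0.17 to 0.39. Single genes that did not pass changed sign too. The log2 fold change of Cd4 was 0.13 with a pseudocount of 5, 0.60 by edgeR and 0.63 by DESeq2. Without 1 library it ran from -1.01 to 0.90 for Cd4, from -0.067 to 0.35 for Adgre1, from -0.13 to 0.46 for Csf1r, from -0.70 to 0.22 for Arg1, from -0.33 to 0.18 for Ccl5, from -0.24 to 0.072 for Mki67 and from -0.84 to 0.29 for Tnf.

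With 3 tumors per group and a floor of 1.33 to 6.38 normalized counts, genes of rare cells such as Cxcr3 and Foxp3 could not be compared.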
